A study of Homo sapiens with 20 samples.

Results

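Of the 205 splicing events listed for inhibition of the mitotic kinase Aurora-A, 92 were also listed after depletion of at least 1 of 6 splicing factors. These 92 recurring events, in 89 genes, are described here and set against the 113 MLN8237 events found in no depletion table. An event is an exon, an intron or an alternative splice site with an identifier of its own, and events were matched by that identifier. The 7 tables together hold 19275 different events. Membership rests on the authors' own listing in both comparisons, and the members were selected on the measured PSI changes, so those changes are given as a description, without a test.

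RNA was sequenced from HEK293T cells, a transformed line derived from human embryonic kidney. In a first set, cells received the Aurora-A inhibitor MLN8237 (alisertib) or its solvent DMSO for 24 hours. In a second set, siRNA against SRSF1, SRSF2, SRSF7 or SF3B5 or a non-targeting control called siNT1 was applied for 48 hours, and in a further set siRNA against SRSF3 or RBM39 or a control called siNT2. Each of the 10 groups has 2 samples, and the labels do not say whether these came from separate cultures. HEK293T is a single transformed line, and all groups share it. The depletion of the targeted genes and the inhibition of the kinase were not checked here, since no expression values were used.

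The deposited value of an event is its percent spliced in (PSI), the percent of transcripts of the gene that carry the exon, keep the intron or use the site. Each PSI is the authors' mean of a group of 2 samples, so no replicate error stands behind any value below, and the number of reads behind it is unknown. A change is the PSI of the treated group minus that of its control, in percentage points. No listed change was under 15 points, and an event missing from a table is written as not listed, which does not show that it was unchanged. The DMSO, siNT1 and siNT2 samples belong to different sets, so levels set across them also differ by set, by transfection and by duration, and these cannot be told apart.

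Most human genes with several exons are spliced in more than one way, and the choice depends on proteins that bind the transcript. The SR proteins, here SRSF1, SRSF2, SRSF3 and SRSF7, bind exons through RNA recognition motifs and help the spliceosome to recognise weak splice sites, and their activity depends on phosphorylation. RBM39 is related to the factor that recognises the 3' splice site, and SF3B5 is a small subunit of the SF3b complex that binds the branch point. Aurora-A, encoded by AURKA, acts at the centrosome and the mitotic spindle, and the study asked how it is linked to such splicing regulators. Loss of a factor that supports an exon gives skipping of the exon and, for introns, retention.

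Reference sequences of 8 recurring coding exons are given as examples and do not represent the whole set. They were chosen because the exon is short enough to print or because several comparisons listed it. Capitals mark the exon, and lower case marks the last 15 bases of the preceding exon and the first 15 bases of the following exon in a GENCODE release 29 transcript on GRCh38. The authors' tables hold no coordinates, and each exon is the only annotated internal exon of its gene with the listed length.
ZNF35, 145 bases, chr3:44652557-44652701, plus strand: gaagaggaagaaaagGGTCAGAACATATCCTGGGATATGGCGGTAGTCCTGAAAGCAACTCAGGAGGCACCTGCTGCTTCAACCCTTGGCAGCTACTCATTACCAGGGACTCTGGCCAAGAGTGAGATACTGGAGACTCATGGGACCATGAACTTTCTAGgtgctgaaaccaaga
DCUN1D4, 105 bases, chr4:51911070-51911174, plus strand: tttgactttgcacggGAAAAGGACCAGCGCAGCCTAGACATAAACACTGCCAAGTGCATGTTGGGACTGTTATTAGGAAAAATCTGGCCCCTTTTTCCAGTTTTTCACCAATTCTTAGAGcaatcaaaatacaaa
VASH2, 57 bases, chr1:212965722-212965778, plus strand: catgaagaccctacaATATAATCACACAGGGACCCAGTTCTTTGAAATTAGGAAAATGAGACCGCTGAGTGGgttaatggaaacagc
HLA-DMB, 117 bases, chr6:32935536-32935652, minus strand: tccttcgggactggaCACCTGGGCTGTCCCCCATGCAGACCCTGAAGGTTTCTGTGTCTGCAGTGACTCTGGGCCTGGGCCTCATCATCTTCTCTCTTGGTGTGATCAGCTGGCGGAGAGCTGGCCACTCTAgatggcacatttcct
NRCAM, 57 bases, chr7:108225645-108225701, minus strand: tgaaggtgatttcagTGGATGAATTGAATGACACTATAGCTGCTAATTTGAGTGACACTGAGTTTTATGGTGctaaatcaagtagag
ST3GAL3, 48 bases, chr1:43792102-43792149, plus strand: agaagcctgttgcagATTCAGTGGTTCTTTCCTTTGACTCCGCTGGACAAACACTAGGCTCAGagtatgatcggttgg
CADPS2, 21 bases, chr7:122436360-122436380, minus strand: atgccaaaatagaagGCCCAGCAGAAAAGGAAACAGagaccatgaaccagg
ATL1, 15 bases, chr14:50629995-50630009, plus strand: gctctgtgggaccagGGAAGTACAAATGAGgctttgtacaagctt
The first 3 were included less under MLN8237 and the other 5 were included more. GC content ran from 36.8% in the NRCAM exon to 59.0% in the HLA-DMB exon. The lengths of all but the ZNF35 exon are multiples of 3, which keeps the reading frame when the exon is skipped. The whole set differed from these examples, since 32 of all 70 recurring exons (45.7%) had such a length. GC content also reached higher values outside the 8, with 69.5% in the CROCC exon.

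The share of events that recurred differed between event types. Of the 121 MLN8237 exons 70 recurred (57.9%), and of the 10 introns 6 did. Of the 40 alternative 5' splice sites 9 recurred (22.5%), and of the 34 alternative 3' splice sites 7 did (20.6%). Exons therefore made up 76.1% of the recurring events and 45.1% of the others, while they made up 75.9% of the 19162 events listed after any depletion. Part of this difference is fixed by the listing, because alternative splice sites were listed only with a higher PSI, while an exon or intron can recur in either direction. Counting only events with the same direction in at least 1 depletion table, 49 of the 121 exons (40.5%) and 5 of the 10 introns recurred, and the counts of alternative sites stay as above. Alternative 5' splice sites were 27.4% of the MLN8237 events in no depletion table, 9.78% of the recurring events and 4.35% of all depletion events. For alternative 3' splice sites these shares were 23.9%, 7.61% and 6.20%.

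**Figure D1:**
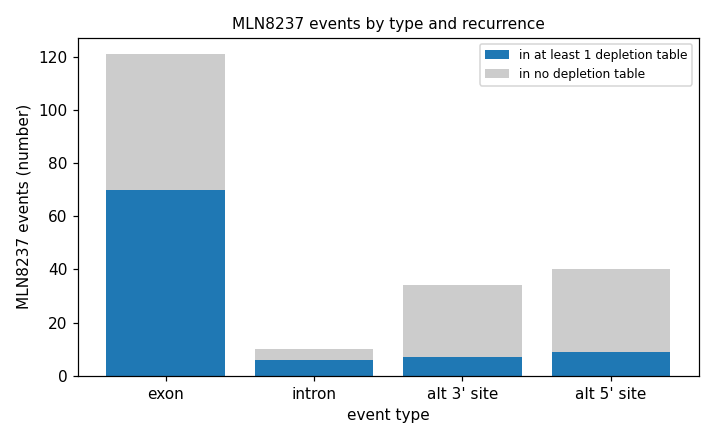
Number of MLN8237 events of each type, split into those in at least 1 depletion table and those in none. Exons recurred in 70 of 121 cases, while alternative 5' and 3' splice sites recurred in 9 of 40 and 7 of 34.

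Size of change separated the recurring events from the others little. The median absolute change under MLN8237 was 18.7 points for the 92 recurring events, with a range of 15.01 to 72.1, and 18.2 points for the 113 others, with a range of 15.1 to 53.4. Among exons alone the medians were 18.7 and 17.5 points. The median DMSO level of the exons was 69.8% for those that recurred and 63.4% for those that did not. Median exon lengths were 104.5 and 108 bases.

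Other features of the exons, which the listing did not use, differed by varying amounts. The length was a multiple of 3 in 32 of 70 recurring exons (45.7%), in 22 of 51 others (43.1%) and in 41.4% of the 14542 exons listed after any depletion. Of the 55 recurring exons with a single annotated match, 41 were coding (74.5%), 2 were partly coding (3.64%) and 12 were untranslated or in non-coding RNA. The corresponding counts among 35 matched exons that did not recur were 25 (71.4%), 4 (11.4%) and 6. Skipping of the exon was annotated in a transcript for 40 of the 55 (72.7%) and for 22 of the 35 (62.9%). Microexons of up to 27 bases, a class known mainly from neurons, numbered 5 of 70 among the recurring exons (7.14%) and 2 of 51 among the others (3.92%), and made up 1.60% of all depletion exons. These counts of microexons are small.

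The recurring events were spread over the 6 depletions unevenly. RBM39 depletion listed 45 of them, which is 22% of the MLN8237 list, 1.14% of the RBM39 list and 48.9% of the recurring events. RBM39 events made up 20.6% of all events listed after any depletion. SRSF3 depletion listed 40, or 19.5% of the MLN8237 list, 0.942% of its own list and 43.5% of the recurring events, against a background of 22.2%. Both comparisons use siNT2 and so share their control.

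The 4 depletions compared with siNT1 listed fewer. SRSF1 depletion held 22 recurring events (10.7% of the MLN8237 list and 1.06% of its own), which is 23.9% of the recurring events against a background of 10.8%. SRSF7 depletion held 19 (9.27% and 1.07%), or 20.7% against 9.23%. SRSF2 depletion held 16 (7.80% and 0.584%), or 17.4% against 14.3%. SF3B5 depletion, the longest list, held 22 (10.7% and 0.186%), or 23.9% against a background of 61.7%. In that table alone the share among recurring events was below the background. The SF3B5 list holds 11832 of the 19162 background events, which lowers the background share of every other depletion. No background without the SF3B5 list was formed, so the shares above the background may follow from its length.

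Many of the events were listed more than once. Of the 92, 44 were in a single depletion table, 28 in 2, 18 in 3 and 2 in 5. At least 2 depletions listed 48 of them (52.2%), while 26.0% of all depletion events were in at least 2 tables. The long SF3B5 list, with 61.7% of all depletion events, weighs on that background too. Tables with siNT1 listed 53 of the events, tables with siNT2 listed 65, and 26 were in both kinds, so these do not rest on 1 shared control. As a reference, the share of a depletion's events found in a table with the other control was 41.0% for SRSF1, 38.6% for SRSF2, 42.4% for SRSF7, 20.4% for SF3B5, 42.1% for SRSF3 and 54.0% for RBM39, while of the MLN8237 events 31.7% were in a siNT2 table and 25.9% in a siNT1 table.

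Changes were mostly larger after depletion, as they were over the whole tables. The median absolute change of all listed events was 18.6 points for MLN8237 and ran from 20.4 points for SRSF7 to 25.4 points for SF3B5 in the depletion tables. For 75 of the 92 events the largest change after a depletion exceeded that under MLN8237, and the medians were 26.8 and 18.7 points. The choice of the largest value over several tables favours the depletions. Within single tables the change was larger after depletion for 35 of 45 events with RBM39, 29 of 40 with SRSF3, 20 of 22 with SF3B5, 12 of 22 with SRSF1, 11 of 16 with SRSF2 and 11 of 19 with SRSF7. For 9 events both changes reached 25 points. Closest to the limit under MLN8237 was a 53-base exon of CCDC18-AS1, an antisense RNA gene, at 59.7% in DMSO and 74.7% with the inhibitor.

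**Figure D2:**
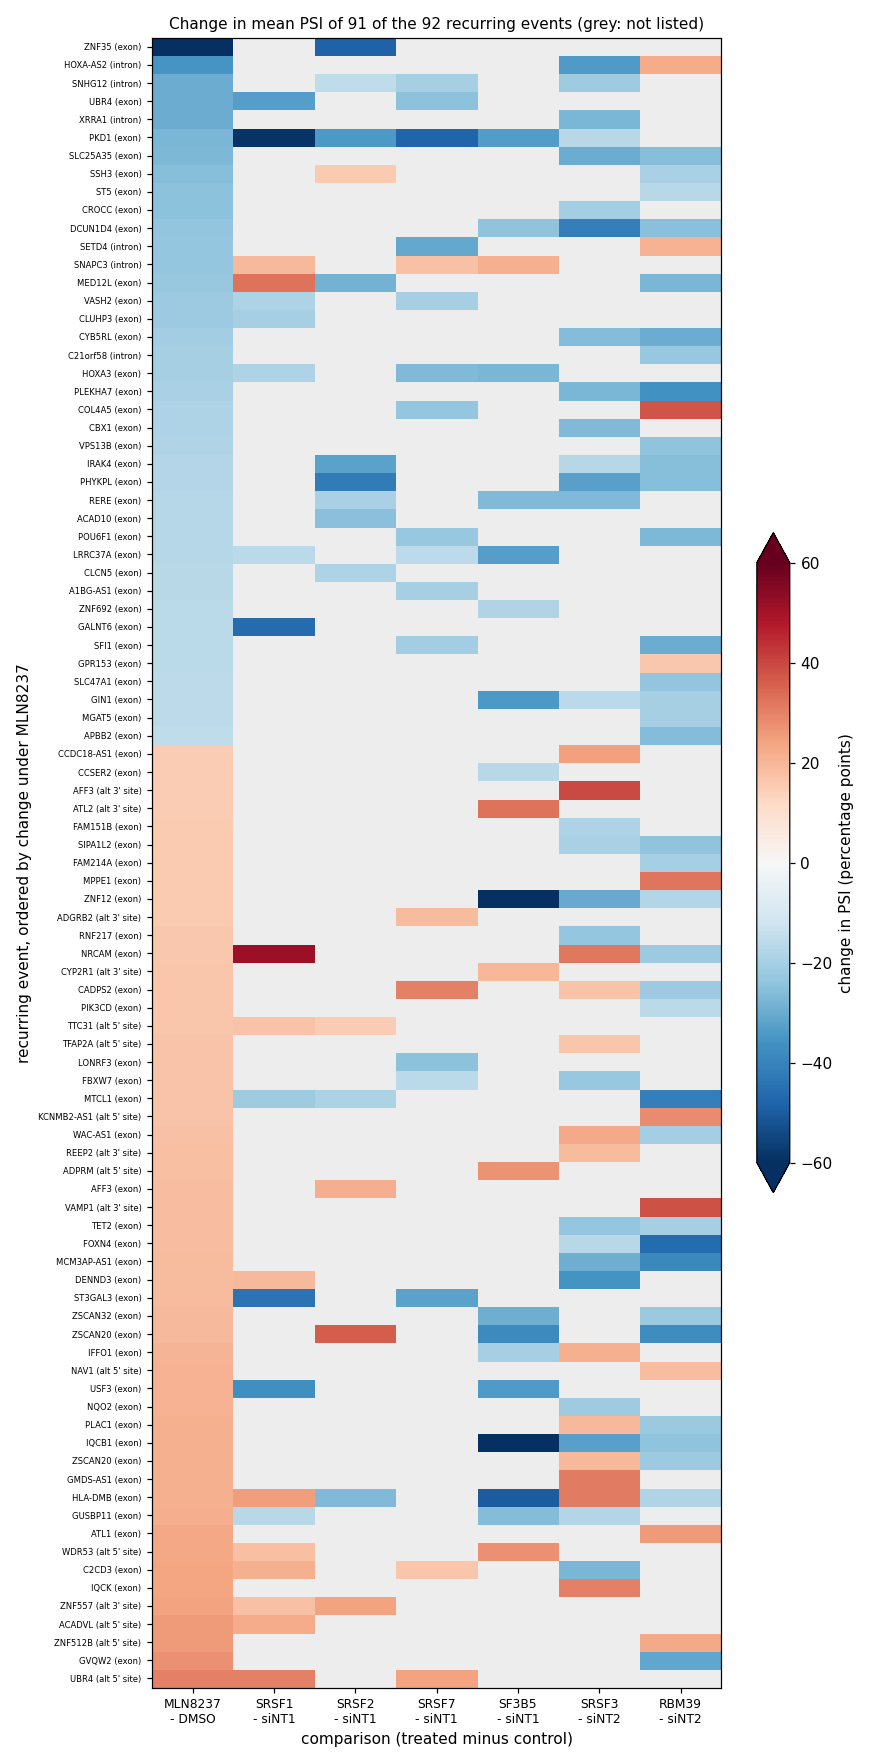
Change in mean PSI, in percentage points, of 91 of the 92 recurring events (lines, ordered by the change under MLN8237) in the MLN8237 comparison and the 6 depletions, with colours limited to 60 points either way and grey where an event was not listed. Events lower under MLN8237 are mostly blue in the depletion columns as well, while those higher under MLN8237 include many blue fields for RBM39, SF3B5 and SRSF3.

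All 6 recurring introns were retained less under MLN8237, as were 9 of the 10 introns listed for the inhibitor (90.0% lower). In 3 of the 6 every depletion that listed the intron also gave less retention. With SRSF3 all 3 shared introns were lower, with 45.3% of all introns lower in that table, and with RBM39 1 of 3 was lower against 10.5%. With SRSF7 2 of 3 were lower against 29.0%. SRSF1, SRSF2 and SF3B5 each listed a single member intron, lower with SRSF2 (20.6% of introns lower in its table) and higher with SRSF1 and SF3B5 (33.2% and 6.73% lower).

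SNHG12, the host gene of several small nucleolar RNAs, had a 324-base intron on chromosome 1, from 28579588 to 28579911. Its retention was 60.6% in DMSO and 30.7% in MLN8237. It was at 70.6% in siNT1, 55.4% after SRSF2 and 50.8% after SRSF7 depletion, and at 51.2% in siNT2 and 30.0% after SRSF3 depletion. Retention was thus lower in all 4 comparisons, and the siNT2 to SRSF3 step ended at nearly the same level as the inhibitor. The controls of this intron differed by 19.4 points between siNT1 and siNT2, the widest gap among the 26 recurring events with both controls. A 400-base intron of XRRA1, a gene named for X-ray resistance (chromosome 11, 74843454 to 74843853), was retained at 46.9% in DMSO, 17.3% in MLN8237, 39.9% in siNT2 and 12.4% after SRSF3 depletion.

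In HOXA-AS2 and SETD4 the depletions differed in direction. The 440-base intron of HOXA-AS2, an antisense RNA gene of the HOXA cluster (chromosome 7, 27122027 to 27122466), was retained at 87.9% in DMSO and 52.4% in MLN8237. Its siNT2 level was 69.1%, with 35.1% after SRSF3 depletion and 91.2% after RBM39 depletion. Retention was therefore lower with the inhibitor and without SRSF3, and higher without RBM39. The library kit keeps strand, but the sources do not say whether counting used it, so reads of antisense genes and their partners may be mixed. A 124-base intron of the methyltransferase gene SETD4 was at 55.8% and 32.5% in DMSO and MLN8237, at 47.7% in siNT1 and 17.0% after SRSF7 depletion, and at 42.4% in siNT2 and 63.3% after RBM39 depletion.

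SNAPC3 and C21orf58 complete the introns. A 2519-base intron of SNAPC3, a subunit of the complex that activates transcription of small nuclear RNA genes, was at 95.8% in DMSO and 72.6% in MLN8237 (chromosome 9, 15462991 to 15465509). From 78.6% in siNT1 it was higher after depletion of SRSF1 (97.9%), SRSF7 (96.1%) and SF3B5 (100%). It is the single recurring intron whose listed depletions all went against MLN8237, and these 3 share siNT1. The 283-base intron of C21orf58 was lower under MLN8237 (73.3% and 53.2%) and after RBM39 depletion (63.8% and 41.3%).

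Exons included less under MLN8237 were nearly all included less after depletion too, as were most exons in each depletion table. Of the 33 recurring exons lower under MLN8237, 29 were lower in every depletion that listed them, 1 was higher in its only one and 3 differed between depletions. The shared exons were lower in 11 of 11 cases with SRSF3, 9 of 9 with SRSF7, 7 of 7 with SF3B5, 16 of 18 with RBM39, 8 of 9 with SRSF2 and 7 of 8 with SRSF1. Losses also dominated the whole depletion tables, with 80.9% of exons lower for SRSF3, 78.5% for SRSF7, 97.9% for SF3B5, 89.3% for RBM39, 73.5% for SRSF2 and 62.6% for SRSF1. MLN8237 itself had 48.8% of its exons lower.

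The largest loss among the recurring exons was the ZNF35 exon printed above. ZNF35, a zinc finger gene, had this exon at 100% in DMSO and 27.9% in MLN8237, and at 64.6% in siNT1 and 16.2% after SRSF2 depletion. The siNT1 level of this exon lay well below that of DMSO. In UBR4, a ubiquitin ligase of the N-degron pathway, a 129-base exon was at 72.7% and 43.1% in DMSO and MLN8237. From 87.6% in siNT1 it reached 54.7% after SRSF1 and 63.1% after SRSF7 depletion, so all 3 treated levels were below both controls.

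PKD1, which encodes polycystin-1 of the primary cilium, had the loss shared by most depletions. Its 185-base exon (chromosome 16, 2097319 to 2097503) was at 86.9% in DMSO and 59.3% in MLN8237. In siNT1 it was at 78.8%, and SRSF1, SRSF7, SRSF2 and SF3B5 depletion left 19.9%, 30.9%, 44.3% and 45.1%, while siNT2 had 72.7% and SRSF3 depletion 55.9%. Every depletion that listed the exon ended below the inhibitor. PKD1 and the ciliary rootlet gene CROCC have near-identical pseudogene copies, so the reads behind both are uncertain. The 200-base exon of CROCC was at 64.5% in DMSO, 40.1% in MLN8237, 46.7% in siNT2 and 26.5% after SRSF3 depletion.

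DCUN1D4 takes part in the attachment of NEDD8 to cullins. Its 105-base exon, also printed above, was at 73.0% in DMSO, 49.2% in MLN8237, 62.3% in siNT1 and 66.3% in siNT2. Depletion left 25.4% without SRSF3, 38.1% without SF3B5 and 41.4% without RBM39. The 3 controls lay within 11 points of each other for this exon, and all treated groups were lower than all controls. The exon of VASH2, which encodes a tubulin carboxypeptidase, was at 79.6% and 58.0% in DMSO and MLN8237, and at 71.5%, 52.9% and 51.4% in siNT1 and after SRSF1 and SRSF7 depletion.

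Several more losses were shared with 3 depletions. IRAK4, a kinase of Toll-like receptor signalling, had a 146-base exon at 70.2% in DMSO and 52.5% in MLN8237, with 55.2% in siNT1 and 23.0% after SRSF2 depletion, and 61.6% in siNT2, 44.3% after SRSF3 and 35.8% after RBM39 depletion. For PHYKPL, a lyase of hydroxylysine breakdown, a 155-base exon was at 57.7% in DMSO, 40.2% in MLN8237, 51.3% in siNT1 and 49.1% in siNT2, and the same 3 depletions left 9.49%, 16.6% and 23.6%. In IRAK4 and PHYKPL the siNT1 and siNT2 levels lay between DMSO and the inhibitor. RERE, a transcriptional co-repressor, had a 126-base exon at 77.7% and 60.4%, and at 39.3% after SRSF2, 32.0% after SF3B5 and 47.8% after SRSF3 depletion. Its siNT1 level, 58.7%, was below that of MLN8237, while siNT2 was at 74.3%.

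HOXA3, LRRC37A and GIN1 were the other losses with 3 depletions and 1 direction. A 185-base untranslated or non-coding exon of the homeobox gene HOXA3 was at 37.6% in DMSO, 17.7% in MLN8237 and 39.9% in siNT1, and at 21.4%, 13.5% and 12.7% after SRSF1, SRSF7 and SF3B5 depletion. A 286-base exon of GIN1 was at 94.4% in DMSO and 78.6% in MLN8237, at 89.9% in siNT1 and 55.4% without SF3B5, and at 85.9% in siNT2, 69.9% without SRSF3 and 65.8% without RBM39. LRRC37A belongs to a family of near-identical copies, so its 55-base exon (89.0% and 72.1%, with 85.0% in siNT1 and 52.0% without SF3B5) is uncertain.

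Losses shared with SRSF3 and RBM39 alone included PLEKHA7, a protein of adherens junctions. Its 87-base exon was at 100% in DMSO and 80.6% in MLN8237, and at 95.7%, 68.4% and 59.6% in siNT2 and after SRSF3 and RBM39 depletion. A 141-base exon of the mitochondrial carrier gene SLC25A35 was at 76.7% and 49.5% in DMSO and MLN8237, and at 58.3%, 28.4% and 32.9% in siNT2 and without SRSF3 and RBM39. In CYB5RL a 149-base exon was at 69.8% and 49.0% in the first set, and at 61.4%, 35.4% and 31.5% in those 3 groups. Each of these 3 exons was lowest after a depletion. ST5 shared a 41-base untranslated or non-coding exon with RBM39 alone, at 61.6% in DMSO, 37.1% in MLN8237, 45.8% in siNT2 and 29.2% after depletion. A 98-base exon of CBX1, a heterochromatin protein gene, was shared with SRSF3 alone and was at 52.0%, 33.3%, 55.8% and 29.2% in DMSO, MLN8237, siNT2 and SRSF3-depleted cells. SFI1, a centriole protein gene named after its values were seen, had a 254-base exon at 90.8% and 74.6%, at 83.3% in siNT1 and 62.4% without SRSF7, and at 82.1% in siNT2 and 52.1% without RBM39.

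Of the 33 losses, 4 were not simply repeated. A 72-base exon of SSH3, a phosphatase of cofilin, was at 89.6% in DMSO and 64.0% in MLN8237, and lower after RBM39 depletion (77.7% and 58.5%), but higher after SRSF2 depletion (70.6% and 86.2%). The 90-base exon of the Mediator gene MED12L was at 81.0% and 58.2%, and from 59.8% in siNT1 it moved to 92.5% without SRSF1 and 31.5% without SRSF2, with 73.1% and 45.8% in siNT2 and without RBM39. The SRSF1 and SRSF2 values share 1 control and lay on either side of it. The 9-base microexon of the collagen gene COL4A5 was at 44.9% and 26.2%, at 50.4% in siNT1 and 27.2% without SRSF7, and at 42.4% in siNT2 and 80.1% without RBM39. The exon of GPR153, an orphan receptor, was at 80.2% and 64.1%, and at 72.5% and 88.5% in siNT2 and without RBM39.

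**Figure D3:**
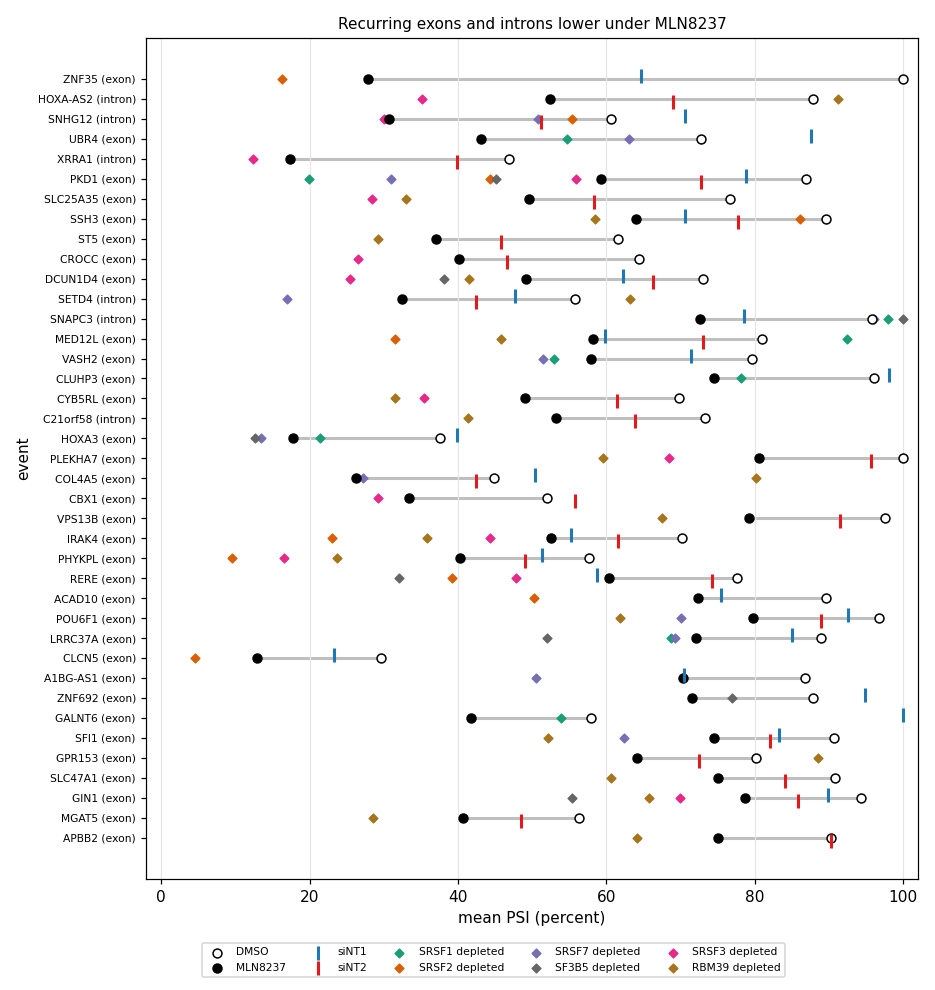
Mean PSI, in percent, of the 39 recurring exons and introns lower under MLN8237, with DMSO as open and MLN8237 as filled circles, siNT1 and siNT2 as blue and red bars, and depleted groups as coloured diamonds. In most lines the diamonds lie at or left of the filled circle, with SNAPC3 and GPR153 among the exceptions.

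Exons included more under MLN8237 had no such common direction. Of the 37 recurring exons higher under MLN8237, 7 were higher in every depletion that listed them, 20 were lower in every one and 10 differed between depletions. With RBM39 18 of 20 were lower and 2 higher. With SF3B5 9 of 10 were lower, in a table with 97.9% of exons lower. With SRSF3 13 of 23 were lower and 10 higher (43.5% higher), in a table with 19.1% of exons higher. SRSF1 had 4 higher of 8 (37.4% of exons higher in its table), SRSF2 2 of 4 (26.5%) and SRSF7 2 of 5 (21.5%). For RBM39 the share of lower exons was 88.9% among those lower under MLN8237 and 90.0% among those higher, close to the 89.3% of the whole table on either side.

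NRCAM and CADPS2 had exons that were higher with the inhibitor and without SRSF3, and lower without RBM39. The 57-base exon of NRCAM, a neuronal adhesion molecule, was at 29.4% in DMSO and 45.7% in MLN8237. It was at 38.6% in siNT1 and 89.8% after SRSF1 depletion, and at 39.5% in siNT2 and 71.3% after SRSF3 depletion, but at 17.8% after RBM39 depletion. SRSF3 and RBM39 depletion, with the same control, thus lay on opposite sides of it. The 21-base microexon of CADPS2, which primes dense-core vesicles for release, had the same split, with 32.7% and 49.3% in DMSO and MLN8237, 19.5% in siNT1 and 49.7% without SRSF7, and 34.4% in siNT2, 51.6% without SRSF3 and 12.7% without RBM39.

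ATL1 encodes atlastin, which fuses tubules of the endoplasmic reticulum. Its 15-base microexon was at 3.75% in DMSO, 26.9% in MLN8237, 13.9% in siNT2 and 39.6% after RBM39 depletion. It was 1 of the 2 exons higher under both MLN8237 and RBM39 depletion, the other being an exon of MPPE1 with 95 bases, outside the coding sequence, at 57.3%, 73.2%, 57.2% and 89.3% in the same 4 groups. A 78-base exon of IQCK was higher under MLN8237 (36.9% and 60.5%) and after SRSF3 depletion (39.8% and 69.9%). The exons of CCDC18-AS1 and GMDS-AS1, both in non-coding RNA genes, were shared with SRSF3 alone and were higher there as well, at 80.6% and 91.6% after depletion. A 75-base exon of AFF3, a transcription elongation gene, was at 8.69% in DMSO, 27.2% in MLN8237, 14.0% in siNT1 and 35.9% without SRSF2.

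A 104-base exon of GVQW2 was higher under MLN8237 and lower in its only depletion. The exon was at 63.1% in DMSO and 90.3% in MLN8237, and at 73.2% in siNT2 and 42.2% after RBM39 depletion.

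HLA-DMB, which helps to load peptides onto class II molecules, had the gain listed by most depletions, with both directions among them. The 117-base exon was at 67.7% in DMSO and 89.3% in MLN8237. From 67.5% in siNT1 it was at 92.6% after SRSF1, 40.8% after SRSF2 and 17.7% after SF3B5 depletion, and from 60.9% in siNT2 at 92.2% after SRSF3 and 43.0% after RBM39 depletion. The inhibitor, SRSF1 and SRSF3 groups lay within 4 points of one another, above all 3 controls, while the other 3 depleted groups lay below all controls.

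The 20 gains that were lower in every depletion that listed them included 4 that were listed after 3 depletions, in IQCB1, ZNF12, MTCL1 and GUSBP11. IQCB1, a gene of the ciliary transition zone, had a 63-base exon at 58.6% in DMSO and 79.8% in MLN8237. Its levels were 77.7% in siNT1 and 10.4% without SF3B5, and 66.0% in siNT2, 33.4% without SRSF3 and 41.8% without RBM39. ZNF12, a zinc finger gene, had a 65-base exon at 76.5% and 92.3%, which was at 98.3% in siNT1 and 26.2% without SF3B5, and at 100% in siNT2, 69.6% without SRSF3 and 82.5% without RBM39. A 114-base exon of MTCL1, a crosslinker of microtubules, was at 48.7% and 65.9%, at 58.2% in siNT1, 36.7% without SRSF1 and 39.0% without SRSF2, and at 53.1% in siNT2 and 12.2% without RBM39. These 3 exons were each lower in 3 depletions, as was a 121-base exon of GUSBP11, a pseudogene with near-identical copies whose value is uncertain (70.8% in DMSO and 92.5% in MLN8237).

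Further exons, in ST3GAL3, FBXW7, TET2 and FOXN4, were higher with the inhibitor and lower in both depletions that listed them. The 48-base exon of ST3GAL3, a sialyltransferase, was at 70.0% in DMSO, 89.1% in MLN8237 and 97.9% in siNT1, and at 53.8% and 65.9% after SRSF1 and SRSF7 depletion. FBXW7, the substrate receptor of a cullin ligase, had an exon of 93 bases outside the coding sequence, at 73.4% and 90.6% in DMSO and MLN8237, at 85.6% in siNT1 and 69.6% without SRSF7, and at 88.6% in siNT2 and 65.7% without SRSF3. TET2, which oxidises methylcytosine, had a 3455-base coding exon at 64.0% and 82.7%, and at 77.7%, 54.7% and 57.8% in siNT2 and without SRSF3 and RBM39. In these 3 genes each depleted level was below its siNT control, and each siNT level was above DMSO. The transcription factor gene FOXN4 had a 125-base exon at 78.2% in DMSO, 96.9% in MLN8237 and 97.0% in siNT2, and at 80.4% and 50.6% without SRSF3 and RBM39. A 103-base exon of MCM3AP-AS1 and a 94-base exon of SIPA1L2, named after their values were seen, were also lower without SRSF3 and RBM39. The first was at 55.3% and 74.2% in DMSO and MLN8237, and at 63.1%, 33.9% and 24.5% in siNT2 and without SRSF3 and RBM39, and the second at 36.2%, 52.0%, 35.0%, 15.4% and 10.9% in these 5 groups.

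Mixed directions were found in 10 gains. C2CD3, needed for the distal end of centrioles, had a 158-base exon at 61.8% and 85.4%, which from 49.3% in siNT1 was at 70.6% without SRSF1 and 65.7% without SRSF7, and from 65.7% in siNT2 at 38.2% without SRSF3. The 112-base exon of DENND3, an activator of a Rab GTPase, was also higher without SRSF1 (66.4% and 86.0%) and lower without SRSF3 (67.3% and 31.2%). In ZSCAN20, a zinc finger gene, 2 neighbouring exons recurred. The 77-base exon was at 33.7% and 55.1%, and at 38.0%, 57.5% and 16.4% in siNT2 and without SRSF3 and RBM39. The 85-base exon was at 47.4% and 66.8%, at 51.3% in siNT1, 87.9% without SRSF2 and 13.3% without SF3B5, and at 66.4% in siNT2 and 29.2% without RBM39. SRSF3 depletion listed the first exon and not the second. WAC-AS1, PLAC1 and IFFO1 make up the rest with NRCAM, CADPS2 and HLA-DMB, and in the first 2, as in NRCAM, the exon was higher without SRSF3 and lower without RBM39.

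**Figure D4:**
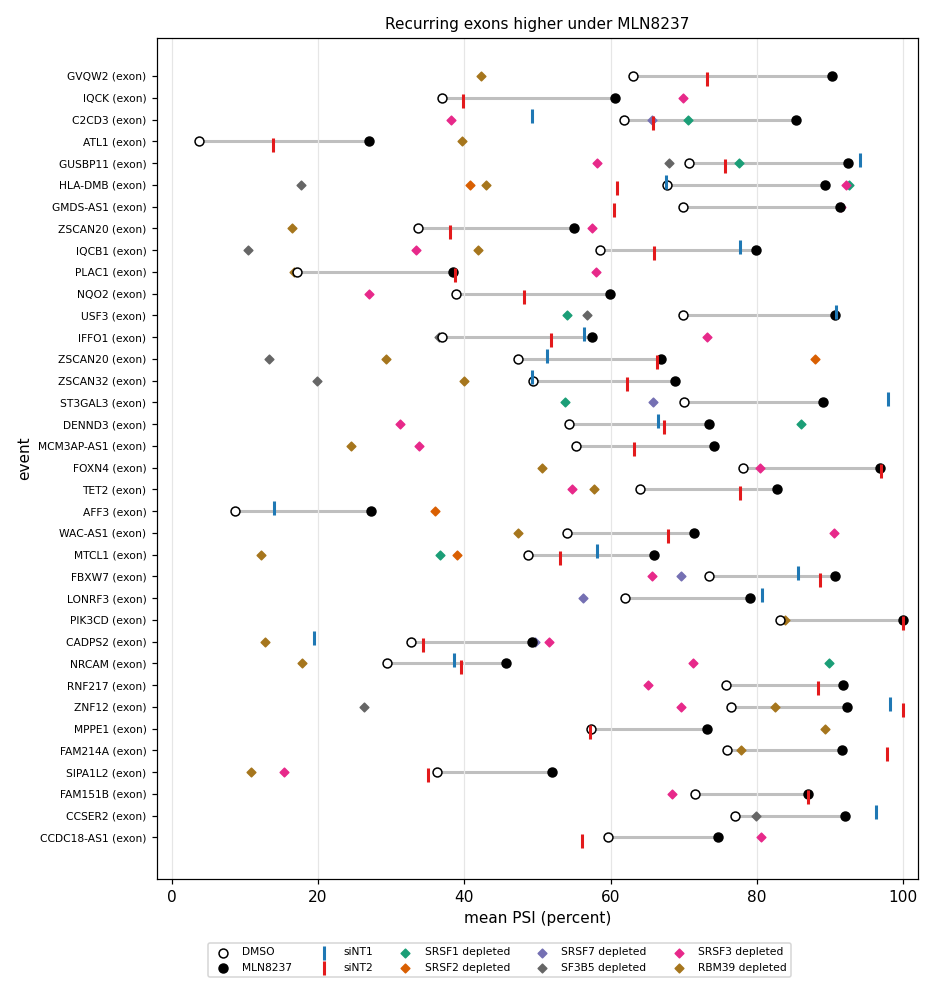
Mean PSI, in percent, of 36 of the 37 recurring exons higher under MLN8237, with symbols for DMSO (open circles), MLN8237 (filled circles), siNT1 and siNT2 (blue and red bars) and the depleted groups (diamonds). Depleted groups lie on both sides of the DMSO to MLN8237 span, and for FOXN4, PIK3CD and USF3 a control bar lies on the filled circle.

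All 16 recurring alternative splice sites were higher under MLN8237 and higher in each depletion that listed them. This carries no information on agreement, because none of the alternative splice sites in any of the 7 tables, from 74 with MLN8237 to 640 with SF3B5, was listed as lower. The highest was an alternative 5' splice site of UBR4 at 32.9% in DMSO and 63.0% in MLN8237, with 15.3% in siNT1, 45.7% after SRSF1 and 39.4% after SRSF7 depletion. The same 2 depletions listed the UBR4 exon, but without coordinates it is unknown whether the site lies at or near that exon. An alternative 5' splice site of ZNF512B was at 14.5%, 40.2%, 20.4% and 43.3% in DMSO, MLN8237, siNT2 and after RBM39 depletion.

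Alternative splice sites shared with siNT1 comparisons included one of ACADVL, an enzyme of fatty acid oxidation, at 37.4% in DMSO, 63.0% in MLN8237, 51.9% in siNT1 and 74.1% without SRSF1. A 3' splice site of ZNF557 was at 21.3% and 45.4%, and at 16.6% in siNT1, 34.4% without SRSF1 and 40.6% without SRSF2. For WDR53 a 5' splice site was at 27.3% and 50.6%, with 23.2%, 41.1% and 50.8% in siNT1 and without SRSF1 and SF3B5. The median siNT1 level of the 9 sites with that control was 23.2%, while the same sites had medians of 32.9% in DMSO and 63.0% in MLN8237. A 3' splice site of VAMP1, a vesicle fusion protein, was at 60.1% and 78.8% in DMSO and MLN8237, and at 54.4% and 92.4% in siNT2 and without RBM39. AFF3 had a recurring 3' splice site besides its exon, at 21.7% and 36.8% under the inhibitor and at 17.6% and 57.1% in siNT2 and without SRSF3.

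**Figure D5:**
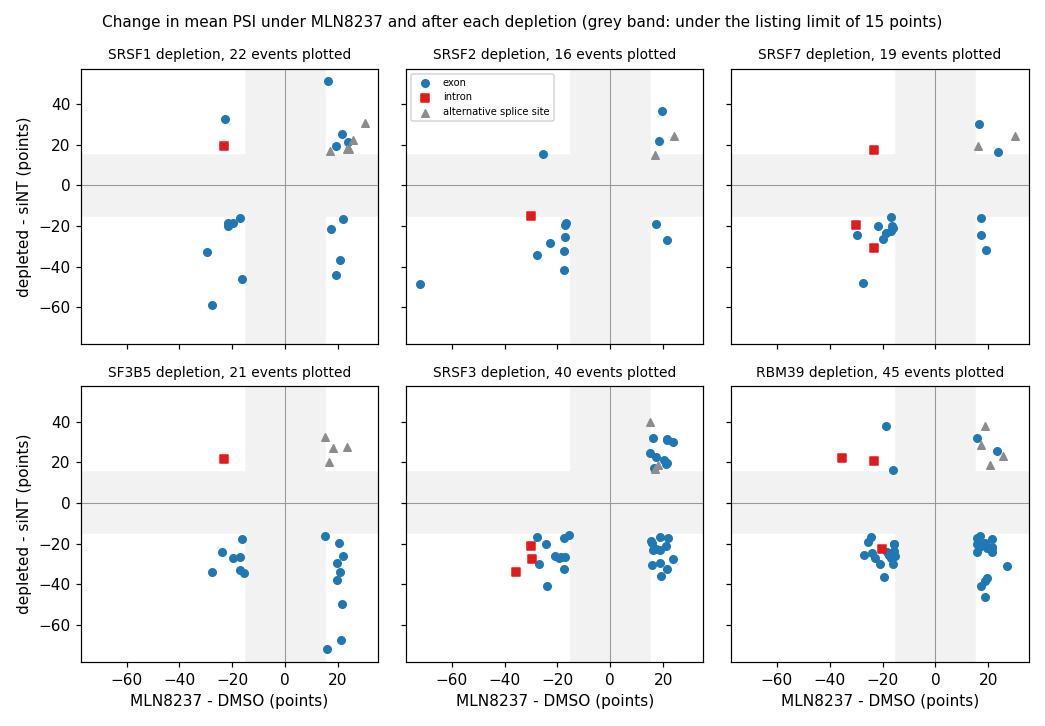
Change in mean PSI under MLN8237 (horizontal axis) against the change after each depletion (vertical axis), both in percentage points, with 1 point for each plotted event and grey bands below the listing limit of 15 points. No exon or intron lies in the upper left field for SRSF3, while the lower right field holds 13 exons for SRSF3 and 18 for RBM39.

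Control levels differed between the sets by amounts that reached the listing limit. Of the 41 recurring exons with a siNT1 value, 15 lay at least 15 points from DMSO in siNT1, and of the 53 with a siNT2 value 11 did. The median distance from DMSO was 12.1 points for siNT1 and 8.60 for siNT2. An exon of GALNT6, a glycosyltransferase, lay farthest, at 58.0% in DMSO and 100% in siNT1, with 41.7% in MLN8237 and 54.0% after SRSF1 depletion. Its direction was the same in both comparisons, but the SRSF1-depleted level was close to that of DMSO. In 11 exons the siNT1 level was within 5 points of MLN8237, and in 8 it was within 5 points of DMSO. For siNT2 the counts were 9 and 14.

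The median siNT level lay between DMSO and MLN8237 for lost and gained exons with either control. Over the 31 gained exons with a siNT2 value the medians were 57.3% in DMSO, 74.2% in MLN8237 and 63.1% in siNT2. Over the 19 with a siNT1 value they were 58.6%, 79.1% and 66.4%. The 22 lost exons with siNT1 had medians of 83.9% in DMSO, 58.8% in MLN8237 and 71.1% in siNT1. The lost exons with siNT2, also 22, had 78.9%, 58.8% and 72.6%. DMSO enters both its difference from MLN8237 and that from siNT, so its own error moves both, and the part of this in the values was not tested. Between siNT1 and siNT2 the median distance was 6.23 points over the 26 recurring events with both, and 2.72 points over all 3392 events with both.

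Events of the same gene did not always recur together. Recurring events in 3 genes came in pairs, those of UBR4, ZSCAN20 and AFF3. A further 7 events in no depletion table lay in a gene with a recurring one. SNHG12 had a second intron, of 464 bases, at 45.2% in DMSO and 23.0% in MLN8237, and an alternative 5' splice site at 64.3% and 84.5%, neither of which was listed after a depletion. A 66-base exon of SLC25A35 (83.1% and 62.2%) and a 95-base exon of POU6F1 (93.0% and 71.7%) were lower under MLN8237 and not listed after a depletion, while the 141-base and 169-base exons of these genes recurred. By gene in place of event, 168 of the 194 genes with an MLN8237 event had some event in a depletion table. The share of all genes with such an event was not formed, so nothing can be read from this count.

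The largest changes among the MLN8237 events in no depletion table were gains of alternative splice sites, named after their values were seen. A 5' splice site of the DNA repair gene BRCA1 was at 8.47% in DMSO and 61.9% in MLN8237. A 3' splice site of DOK1, an adaptor of tyrosine kinase signalling, was at 39.0% and 86.6%, and a 5' splice site of TPT1-AS1, an antisense RNA gene, at 33.7% and 75.5%. In SYNE2, which encodes a nesprin of the nuclear envelope, a 3' splice site was at 27.5% and 62.1%. These 4 changes were larger than that of any exon or intron in no depletion table.

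The largest loss among exons in no depletion table was in a 169-base exon of PRELID3A (60.3% in DMSO and 28.3% in MLN8237). Next came a 75-base exon of ELMO2, an adaptor of cell motility (68.7% and 43.2%), and a 189-base exon of DAGLA (80.7% and 58.5%). Among introns the largest loss was in the SNHG12 intron of 464 bases. A 40-base exon of PFN1, the actin-binding protein profilin, had the largest gain of the exons at 10.8% and 37.2%, and PFN1 has processed pseudogenes. A 124-base exon of RP11-37B2.1 was at 61.9% and 87.3%, and a 6-base microexon of MGAT5B, a glycosyltransferase of the brain, at 6.64% and 29.3%. The 4 introns in no depletion table had a median length of 3647 bases, with a range of 464 to 6567. The 6 that recurred had a median of 362 bases, with a range of 124 to 2519. These ranges overlap and the introns are few. Exon directions were even in both sets, with 33 lower and 37 higher among recurring exons and 26 lower and 25 higher among the others.

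Genes of the 5 lists of related processes held 9 of the 92 recurring events (9.78%) and 7.55% of all events listed after any depletion. Of the 14 MLN8237 events in these genes 9 recurred, and of all 205 MLN8237 events 92 did. Of 90 genes of the centrosome, cilium and spindle, C2CD3, CROCC and PKD1 had a recurring event, and events of SYNE2 and CEP295 did not recur. The list held 3.26% of the recurring events and 1.81% of all depletion events. It does not hold every such gene, and IQCB1 and SFI1, described above, are not on it. Of 84 ubiquitin genes, DCUN1D4, FBXW7 and UBR4 had 4 recurring events (4.35%, against 1.51% of all depletion events), and an event of HERC1 did not recur. In the DNA repair list XRRA1 recurred and BRCA1 did not, and in the chromatin list TET2 recurred and KMT2E did not, at 1.09% of the recurring events each, against 1.51% and 1.90% of all depletion events. With so few members, nothing can be read from these shares. None of the 92 genes on the list for RNA binding and splicing had an MLN8237 event, while they held 0.809% of all depletion events. At so small a share, the lack of an event among 205 says little. The list does not hold every RNA-binding gene. Genes that are not protein-coding held 10 of the 92 recurring events and 8 of the 106 others with an annotated gene type. Genes with a zinc finger symbol (ZNF, ZSCAN, ZBTB, ZKSCAN or ZFP and a number) held 8 of 92 and 11 of 113. For neither group was the share of all depletion events formed.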

How the data were processed

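Total RNA from 20 HEK293T samples was made into stranded mRNA libraries, per the labels' protocols. The authors deposited 7 tables of differential splicing, whose names point to VAST-TOOLS, and the submitters' processing notes name hg38, Bowtie and cutadapt. The sources used here give neither versions nor the rule for listing an event. Each PSI is a percent value averaged by the authors over a group, per the file headers, with the difference of both averages in percentage points. Depth and replicate spread cannot be read from such averages, so no event was tested. An exact permutation test (two-sided) of single values would have a smallest p of 0.333 with 2 samples a group.

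Events were matched by identifier with pandas 2.3.3 in Python 3.11.15. Type was read from the identifier. Background shares are over the 19162 events listed after any depletion. The matching was tested on simulated data. Exons and introns were located in GENCODE release 29 (GRCh38) where a gene had 1 internal exon, or 1 intron, of the listed length, which held for 55 of 70 recurring exons and 6 of 6 introns. Exon sequences come from GENCODE transcripts.

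The events, the 5 gene lists and the genes named were chosen with earlier results of these data known. Named were events listed after 3 or more depletions, the 12 highest and 12 lowest changes, all introns, events of at least 25 points in both tables, events with opposite directions, members of the lists, and the leading events in no depletion table. Further genes were named after their values were seen. A recurring event that these rules name enters the counts but is not reported here or drawn. Alternatives covered thresholds of 20 and 25 points, 1 event per gene, a DMSO PSI of 20 to 80, genes with near-identical copies, matching by gene, and each depletion table left out. For direction they also covered exons alone and all event types.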

Additional observations from a re-analysis of the deposited data

How the results depend on the processing

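The number of recurring events was 87 with 1 event per gene and 65 with a DMSO PSI of 20 to 80. Without genes with near-identical copies (a list completed after the values were seen) it was 86. Such settings take out events, and the share of the remaining MLN8237 events that recurred was not formed. With any 1 depletion table left out the number was between 76 and 89. It was lowest among those left-out tables without RBM39, at 76. With changes of at least 20 points in both tables required, the count was 34, and with 25 points it was 9. Matching by gene gave 178 events, with no background share over all genes, and listing with both siNT1 and siNT2 as control gave 26. The share of shared exons and introns with the same direction moved beyond its exact 95% binomial interval only at high thresholds. That interval counts events as independent, although they share samples and controls, and it is wide with 14 to 41 events. It serves as a descriptive limit and is no test of stability. At 25 points in both tables it was 100% for SRSF1 and SRSF2 (2 events each), SRSF7 (1 event), SF3B5 (2) and SRSF3 (3), and at 20 points it was 100% for SRSF7 (4 events). For exons and introns the other alternatives gave 60% to 68.8% for SRSF1, 30.8% to 47.1% for SF3B5 and 33.3% to 50% for RBM39. With alternative splice sites added, the shares were 72.7%, 54.5% and 51.1%. Those sites were listed only as higher, so each counts as the same direction by construction. With fewer events left by construction, the high thresholds say little. No paired analysis was possible because the tables hold group averages and carry no replicate numbers. For the same reason no replicate could be left out.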
